A study of Mus musculus with 35 samples.

Results

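Cyclic AMP (cAMP) is the messenger that the beta2 adrenergic receptor raises inside a cell. This section follows 10 genes that make, bind, anchor, degrade or answer cAMP through brain hemispheres of mice with and without that receptor. The genes are the adenylyl cyclases Adcy1, Adcy5 and Adcy7, the protein kinase A subunits Prkar2b, Prkar1b and Prkaca, the anchoring protein Akap5, the phosphodiesterases Pde4b and Pde1b, and the transcription factor gene Crem. They were 10 of 18193 measured genes, chosen by name with earlier results of these data known. All 33 probe sets annotated to them were followed, of 45101 on the array. Counts of calls among them are therefore a description, and no test against the share of all probe sets. Adcy1 had 2 probe sets, Adcy5 4, Adcy7 3, Prkar2b 3, Prkar1b 5, Prkaca 2, Akap5 3, Crem 4, Pde4b 6 and Pde1b 1. No filter on low values was applied, so all 33 were tested, and 10 of them lay below the median mean signal of all probe sets.

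All mice were male and of the FVB strain, and carried either the wild type or the beta2 adrenergic receptor knockout genotype. The ischemic hemisphere was taken 24 h after middle cerebral artery occlusion (MCAO) on 7 wild type and 7 knockout arrays, and the ipsilateral hemisphere 24 h after sham surgery on 3 wild type and 3 knockout arrays. Naive hemispheres gave 8 wild type and 7 knockout arrays, which per the labels were normalized independently of the surgery arrays and are therefore described apart. The allele and the age of the mice are not given in the sources used here. Nothing in the labels says that each array is a separate animal. The p-values therefore set differences of means against the spread between arrays, which may not be that between mice.

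Adenylyl cyclases turn ATP into cAMP when a receptor activates the stimulatory G protein. cAMP frees the catalytic subunits of protein kinase A from its regulatory subunits, A-kinase anchoring proteins hold the kinase near its substrates, and phosphodiesterases end the signal. In neurons this route couples adrenergic and dopamine receptors to synaptic strength and to transcription through CREB and its relatives, which include the activators and repressors encoded by Crem.

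Levels are log2 signals as deposited, and a change is a difference of mean log2 signals, so that 1 unit is a doubling. Calls rest on limma, fitted to all 45037 non-control probe sets with Benjamini-Hochberg adjustment and a threshold of 0.05, which is the source of every adjusted p and standard error (SE) below. The brightest probe set of a gene is that with the highest mean over the 20 surgery arrays. Arrays within the surgery set correlated at 0.9583 to 0.9977 over all probe sets. The difference between the 3 prime and 5 prime actin control probe sets, a measure of RNA degradation and labelling, was 1.60 to 1.76 on knockout sham arrays, 0.86 to 1.01 on wild type sham arrays, 0.39 to 1.70 on wild type MCAO arrays and 0.43 to 1.75 on knockout MCAO arrays. The brain origin of the samples was borne out by the pan-neuronal marker list, whose mean signal was 11.71 to 12.28 on all 20 surgery arrays.

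The promoters of 4 members are shown because these genes carried calls in opposite directions. Akap5 and Prkar2b were lower after MCAO in the wild type. Adcy7 and Pde4b were higher after MCAO in the knockout, and Pde4b also in the wild type at 1442700_at. Each line is the 120 bases before an annotated start in RefSeq (GRCm38.p6), 5′ to 3′ on the gene's strand, and capitals mark CGTCA, the core of the cAMP response element read on the other strand.
Akap5, chr12:76324771-76324890, plus strand: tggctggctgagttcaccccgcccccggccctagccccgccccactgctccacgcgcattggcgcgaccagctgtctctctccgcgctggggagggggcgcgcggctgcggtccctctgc
Prkar2b promoter 1, chr12:32061278-32061397, minus strand: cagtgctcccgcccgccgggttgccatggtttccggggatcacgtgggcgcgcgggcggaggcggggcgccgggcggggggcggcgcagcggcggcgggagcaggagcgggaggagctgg
Adcy7 promoter 1, chr8:88282872-88282991, plus strand: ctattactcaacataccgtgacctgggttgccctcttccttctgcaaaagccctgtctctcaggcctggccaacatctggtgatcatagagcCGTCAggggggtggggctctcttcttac
Pde4b promoter 1, chr4:102421435-102421554, plus strand: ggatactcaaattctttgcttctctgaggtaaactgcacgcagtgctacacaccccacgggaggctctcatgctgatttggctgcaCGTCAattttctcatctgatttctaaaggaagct

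These windows were searched from 250 bases before to 50 bases after each start, in 22 RefSeq promoters of 9 of the 10 genes. No promoter of Crem was among them, so the counts below do not cover Crem. The full element TGACGTCA, which reads the same on both strands, was in 0 of the 22 and in 1.79% of all 32851 promoters. The core, TGACG or CGTCA and so part of the full element, was in 4 of the 22 and in 20.8% of all. It began 28 bases before the start in Adcy7 promoter 1, 34 bases before it in Pde4b promoter 1, 49 bases before it in Prkar1b promoter 2, and 120 and 6 bases before it in Prkaca promoter 1. It was thus also in promoters of genes with no call after MCAO, and absent from Adcy7 promoters 2 and 3 and Pde4b promoters 2 to 4. CG pairs numbered 27 in the Akap5 window, 32 in that of Prkar2b promoter 1, 6 in Adcy7 promoter 1 and 8 in Pde4b promoter 1. Windows of a single gene differed as widely: the 3 Pde1b promoters held 28, 1 and 2, and the 5 Prkar1b promoters 35, 20, 3, 4 and 37. The median over all promoters was 7, with quartiles of 3 and 20. A match is only a match of letters, and its absence says nothing beyond these windows.

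After MCAO in the wild type 8 of the 9 called member probe sets were lower. The anchor gene Akap5, the type II regulatory subunit gene Prkar2b, the cyclase gene Adcy5 and the phosphodiesterase gene Pde1b fell, by 1.85-fold to 3.05-fold at their brightest probe sets, and only a single probe set, of Pde4b, rose. Among all probe sets 10.7% were called, 5.11% higher and 5.59% lower. Among the 33 of the members 9 were called, 1 higher and 8 lower, in 5 genes. The sham and MCAO arrays did not overlap for 11 of the 33, against 16.5% of all probe sets. The median change of the 33 was 0.03, as was that of all probe sets.

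In the knockout the same comparison gave a different set of calls, mostly upward. Adcy7, Crem and Pde4b rose, by 1.75-fold to 2.47-fold at their brightest probe sets, and Adcy1 (at its dimmer probe set) and Pde1b fell. Among all probe sets 18.7% were called, 10.8% higher and 7.94% lower. Among the members 9 of 33 were called, 7 higher and 2 lower, in 5 genes, and 9 did not overlap, against 20.9% of all. Of all called probe sets 57.6% were higher, or 68.4% after each array was centred on its median. Each genotype was compared with only 3 sham arrays, and member calls that a single array decided are named with the gene. The MCAO changes of other genes named below were not followed with single arrays left out. Over all probe sets the calls fell from 4816 to 2438 in the wild type without sham array 1. In the knockout they fell from 8429 to 3715 without sham array 3. In bulk tissue, fewer cells of a type and less RNA per cell cannot be told apart.

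**Figure D1:**
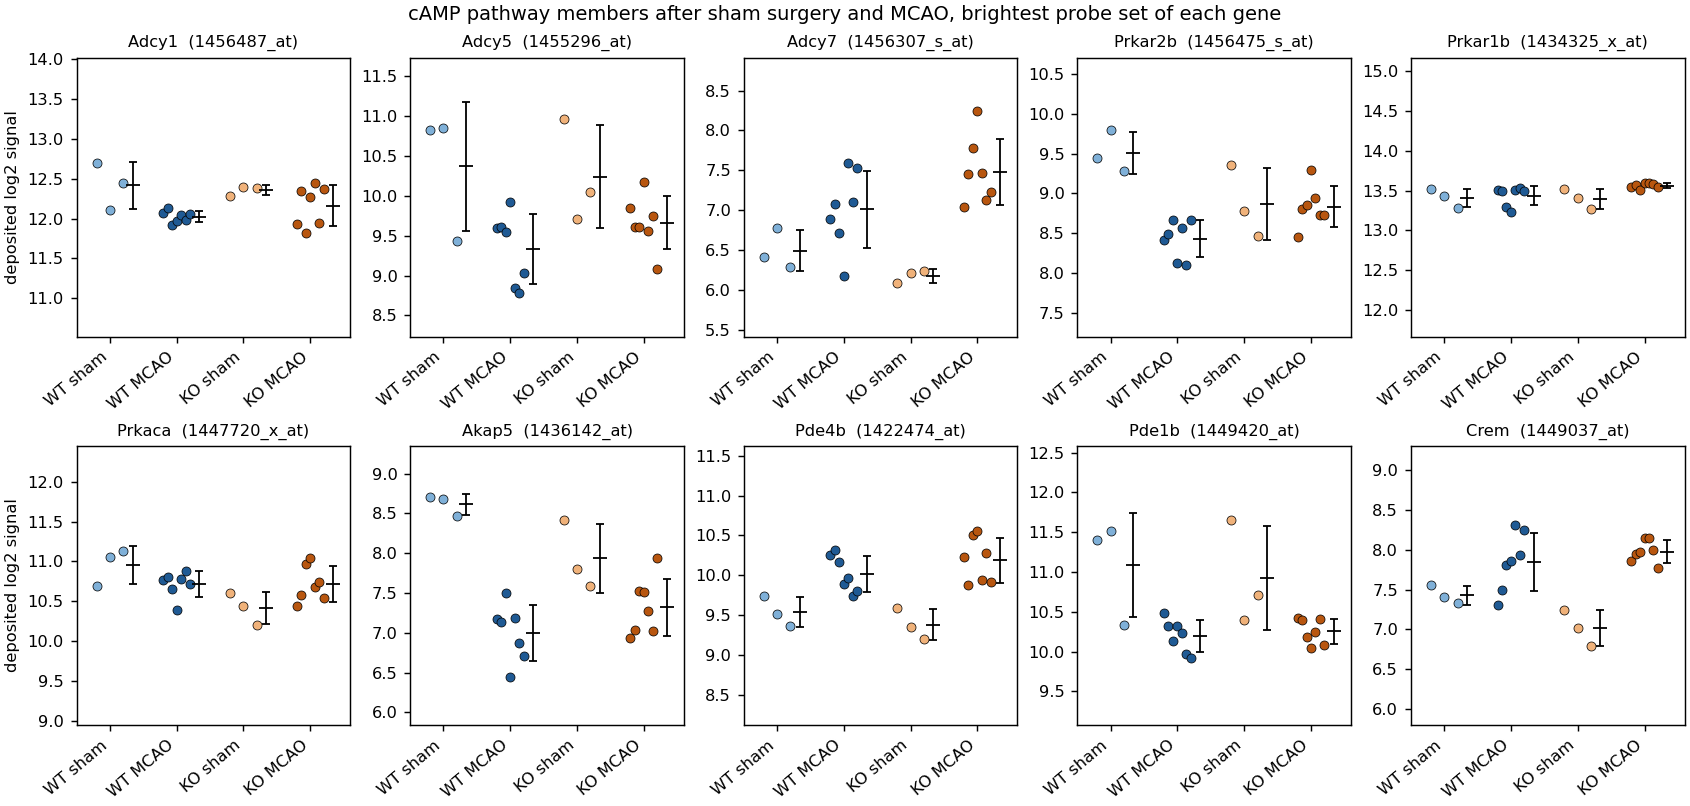
Log2 signal of the brightest probe set of each of the 10 members on the 20 surgery arrays, in wild type sham (n = 3), wild type MCAO (n = 7), knockout sham (n = 3) and knockout MCAO (n = 7); points are arrays and bars are the mean ± SD. Akap5 and Prkar2b are high on all 3 wild type sham arrays, and Prkar1b stays within 13.23 to 13.60 on every array.

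Adcy1 encodes a cyclase that calcium and calmodulin stimulate, known for its role in cortical and hippocampal plasticity (chr11:7063433-7178506, GRCm38.p6, as are all gene positions here). Its brightest probe set, 1456487_at, read 12.70, 12.11 and 12.44 on the wild type sham arrays and 12.28, 12.40 and 12.38 on the knockout sham arrays. After MCAO it read 11.92 to 12.13, median 12.05, in the wild type and 11.82 to 12.45, median 12.27, in the knockout. Wild type MCAO arrays thus reached the level of wild type sham array 2 but not that of sham arrays 1 and 3.
The change was -0.39 (SE 0.13, adjusted p = 0.0641) in the wild type and -0.19 (adjusted p = 0.313) in the knockout. Without wild type sham array 2 the wild type change was -0.54 and passed the threshold (adjusted p = 0.0282). It also passed with an intensity trend, 1 probe set per gene, without dim probe sets and with either control covariate (-0.40 to -0.39, adjusted p 0.033 to 0.0485). The second probe set, 1445359_at, read 8.69, 8.50 and 8.88 in wild type shams and 7.92 to 8.48 after MCAO. It read 8.63, 8.94 and 8.55 in knockout shams and 7.36 to 8.36 after MCAO. Sham and MCAO did not overlap in either genotype. The fall was called in the knockout, at -0.78 (SE 0.19, adjusted p = 0.0074), and not in the wild type, at -0.52 (SE 0.19, adjusted p = 0.0837). Without knockout sham array 2 the knockout value was -0.66 (adjusted p = 0.0656), and with the actin covariate -0.64 (adjusted p = 0.0615).

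Adcy5 (chr16:35154494-35305743) encodes the main cyclase of the striatum, where it serves dopamine and adenosine receptors. The brightest of its probe sets, 1455296_at, read 10.83, 10.85 and 9.44 on wild type sham arrays 1 to 3, and 8.78 to 9.92, median 9.55, after MCAO. In the knockout it read 10.97, 9.71 and 10.05 on the sham arrays and 9.08 to 10.17, median 9.62, after MCAO. The sham arrays of each genotype were therefore spread over more than 1 log2 unit, and sham and MCAO overlapped in both.
The fall in the wild type was 2.05-fold (log2 -1.04, SE 0.31, adjusted p = 0.0356), and the knockout value was -0.58 (adjusted p = 0.188). Leaving out sham array 1 of the wild type ended the call (-0.81, adjusted p = 0.209), as did sham array 2 (-0.80, adjusted p = 0.195) or MCAO array 5, 6 or 7 (-0.99 to -0.95, adjusted p 0.0606 to 0.0657). After a repeated quantile normalization it was -0.94 (adjusted p = 0.0536). The other 3 probe sets gave -0.13 to 0.14 in the wild type and -0.31 to 0.01 in the knockout, with no call.

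Pde1b (chr15:103503034-103530056) encodes a calcium and calmodulin dependent phosphodiesterase that is also abundant in the striatum. Its only probe set, 1449420_at, read 11.41, 11.51 and 10.33 on wild type sham arrays 1 to 3 and 11.65, 10.40 and 10.71 on knockout sham arrays 1 to 3. After MCAO it read 9.92 to 10.48, median 10.23, in the wild type and 10.05 to 10.42, median 10.25, in the knockout. The sham arrays were low and high in the same places as for Adcy5, while the MCAO arrays of both genotypes lay close together.
Pde1b fell 1.85-fold in the wild type (log2 -0.89, SE 0.23, adjusted p = 0.0163) and 1.59-fold in the knockout (log2 -0.67, SE 0.23, adjusted p = 0.0468), with overlap in both. The wild type call was lost without sham array 1 (-0.72, adjusted p = 0.12) or sham array 2 (-0.67, adjusted p = 0.129). The knockout value was -0.30 (adjusted p = 0.368) without knockout sham array 1, and the call was also lost without sham array 3 or without any of MCAO arrays 2, 3, 4, 5 and 7 (-0.77 to -0.63, adjusted p 0.0541 to 0.0813). It was lost as well after median centring, with either control covariate, with array weights and with only the arrays compared (-0.68 to -0.51, adjusted p 0.053 to 0.182). The difference between the genotypes' changes was 0.22 (95% interval -0.46 to 0.89, adjusted p = 0.675).

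Markers of striatal medium spiny neurons, the cells in which Adcy5 and Pde1b are known to be abundant, varied over the same sham arrays. The mean log2 signal of their 9 measured markers was 10.11, 10.73 and 8.34 on wild type sham arrays 1 to 3 and 10.37, 8.64 and 8.78 on knockout sham arrays 1 to 3. It was 8.17 to 9.05 after MCAO in the wild type and 7.81 to 9.14 in the knockout. In the wild type 4 of the 9 fell, Drd1, Tac1, Gpr6 and Rasd2, beside 1139 of all 18193 genes, and the list's median change was -1.24. In the knockout 0 of the 9 passed the test, beside 1380 of all genes called lower, with a median of -0.68. The part of these markers in the Adcy5 and Pde1b values was not tested. The genes whose signal followed Adcy5 most closely over the 20 surgery arrays were Drd2 (Pearson's r = 0.957), Actn2 (0.936) and Penk (0.931), and those closest to Pde1b were Sh3rf2 (0.959), Pde10a (0.955) and Rxrg (0.934), given as a description of arrays that share groups and surgery.

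Adcy7 (chr8:88272190-88329965) encodes a cyclase best known from blood and immune cells. Probe set 1456307_s_at, the brightest, read 6.41, 6.78 and 6.28 in wild type shams and 6.08, 6.21 and 6.24 in knockout shams. After MCAO it read 6.18 to 7.59, median 7.08, in the wild type and 7.04 to 8.24, median 7.45, in the knockout. All 7 knockout MCAO arrays lay above all 3 knockout shams, while the wild type groups overlapped.
Adcy7 rose 2.47-fold in the knockout (log2 1.30, SE 0.25, adjusted p = 0.0014), and the wild type value was 0.52 (adjusted p = 0.199). The difference of these changes, 0.79, did not pass (adjusted p = 0.154), so the genotypes were not shown to differ.
Probe set 1450065_at read 4.42, 4.69 and 4.52 in knockout shams and 4.88 to 6.56, median 5.53, after MCAO, a change of 0.97 (adjusted p = 0.0188). In the wild type it read 4.60, 4.92 and 4.58 in shams and 4.30 to 5.31 after MCAO, a change of 0.30 (adjusted p = 0.52). Probe set 1420970_at read 4.85, 4.69 and 5.04 in knockout shams and 5.05 to 5.87, median 5.26, after MCAO. In the wild type it read 4.47, 4.63 and 4.70 in shams and 4.71 to 5.28 after MCAO. The change of the last was 0.45 in both genotypes, called in the knockout (adjusted p = 0.0341) and just short of it in the wild type (adjusted p = 0.0502).
These dimmer probe sets lost their knockout calls without single sham arrays: 1450065_at without any of knockout sham arrays 1 to 3 (0.91 to 1.04, adjusted p 0.0515 to 0.0768), and 1420970_at likewise (0.37 to 0.54, adjusted p 0.0506 to 0.17). With either control covariate or only the arrays compared both were lost too, at 0.70 to 0.97 and 0.31 to 0.45 (adjusted p 0.0509 to 0.222). Without wild type MCAO array 3 or 4 the latter was called in the wild type (0.48 and 0.50, adjusted p = 0.0454 and 0.0239), as it was with an intensity trend, either control covariate, only the arrays compared or array weights (0.44 to 0.45, adjusted p 0.0051 to 0.0498).

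Immune cell markers moved in more than one direction in the same samples. Over all 18193 genes 1348 rose and 1139 fell in the wild type, and 2713 rose and 1380 fell in the knockout. Of 9 microglial markers 6 fell and 0 rose in the wild type (median -0.75), and 6 fell and 1 rose in the knockout (median -0.73). Of 10 markers of infiltrating monocytes and neutrophils 2 rose and 0 fell in the wild type, and 3 rose and 2 fell in the knockout. The mean signal of the latter list was 5.33 to 5.43 in wild type shams, 5.46 to 5.63 in knockout shams, 6.21 to 7.03 after MCAO in the wild type and 5.41 to 6.50 after MCAO in the knockout. On knockout MCAO arrays 2, 5 and 7 it was 5.62, 5.58 and 5.41, near the knockout shams, and on the other knockout MCAO arrays 6.12 to 6.50. All 9 markers of reactive astrocytes rose in both genotypes, with medians of 2.98 and 3.20. Their mean signal was 10.00, 10.08 and 9.64 on knockout MCAO arrays 2, 5 and 7, and 10.83 to 11.23 on the other knockout MCAO arrays. The part of these cells in the rise of Adcy7, Crem and Pde4b was not tested. Genes closest to Adcy7 over the 20 arrays were Ercc3 (r = 0.934), Gusb (0.930) and Cct4 (0.928).

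**Figure D2:**
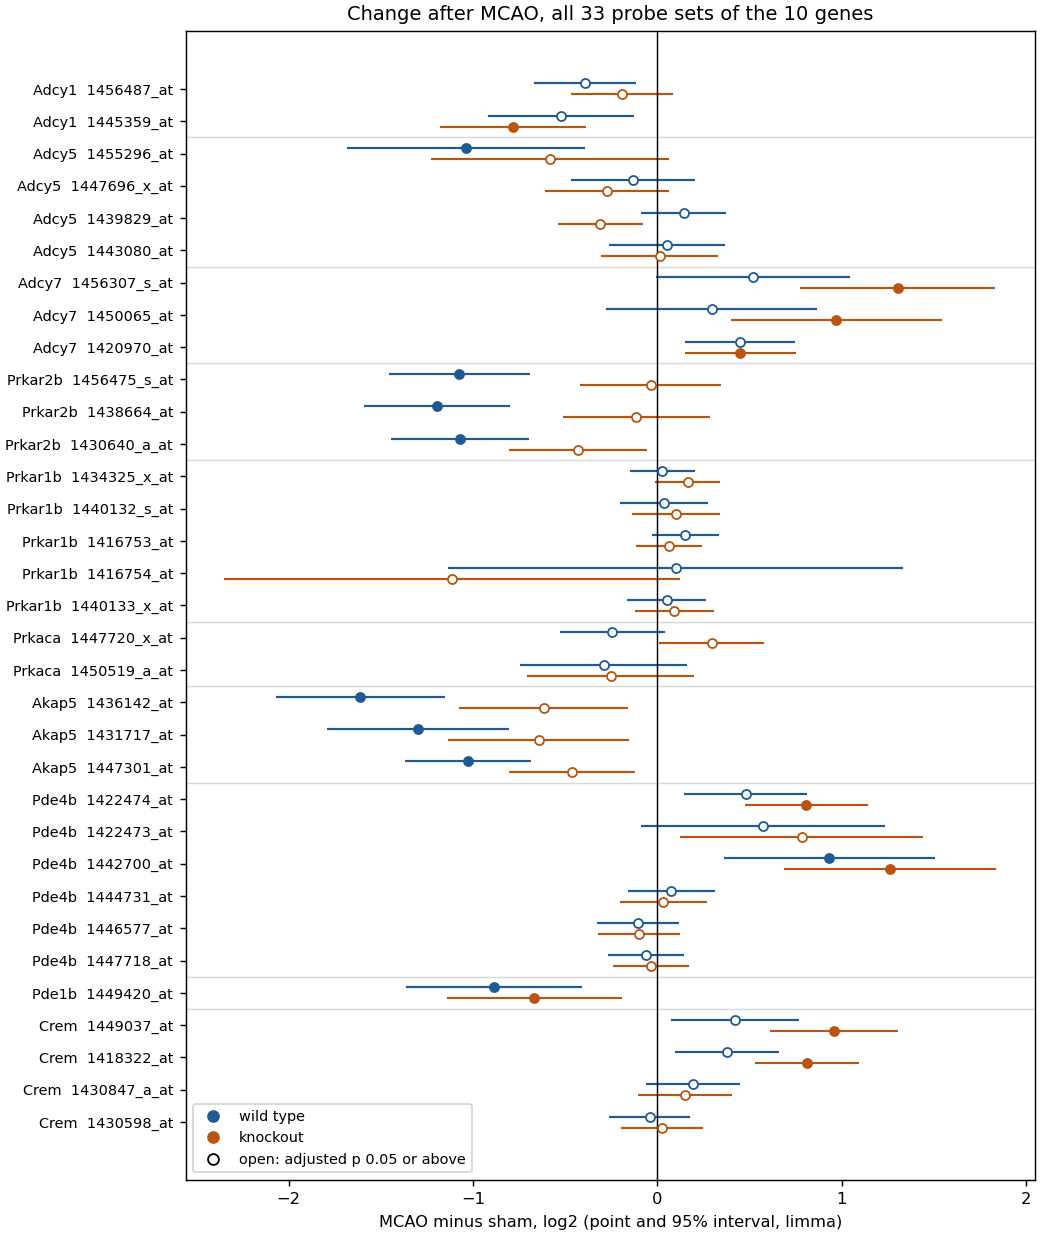
Change from sham to MCAO (log2) of all 33 member probe sets with 95% limma intervals, wild type in blue and knockout in orange; filled points had an adjusted p under 0.05. The 3 Akap5 and 3 Prkar2b probe sets are filled in the wild type only, and Adcy7 and Crem in the knockout only.

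Prkar2b (chr12:31958450-32061648) encodes the type II beta regulatory subunit, which is enriched in brain and binds anchoring proteins. Probe set 1456475_s_at read 9.44, 9.80 and 9.28 in wild type shams and 8.10 to 8.67, median 8.50, after MCAO. In the knockout it read 9.36, 8.78 and 8.47 in shams and 8.45 to 9.30, median 8.81, after MCAO. The wild type groups were separate, and the knockout groups covered the same range.
Group means were 9.51 ± 0.27 (SD, n = 3) and 8.43 ± 0.24 (n = 7) in the wild type, and 8.87 ± 0.45 (n = 3) and 8.83 ± 0.26 (n = 7) in the knockout. Prkar2b fell 2.10-fold in the wild type (log2 -1.07, SE 0.18, adjusted p = 0.00075). The knockout value was -0.04 with a 95% interval of -0.42 to 0.34 (adjusted p = 0.904).
The other probe sets gave the same picture in the wild type. Probe set 1438664_at read 9.58, 9.74 and 9.18 in wild type shams and 7.94 to 8.55, median 8.41, after MCAO (log2 -1.20, adjusted p = 0.00042). Probe set 1430640_a_at read 8.13, 8.65 and 7.80 in wild type shams and 6.50 to 7.44, median 7.23, after MCAO (log2 -1.07, adjusted p = 0.0007). The wild type calls were kept under every other setting that tested these probe sets and without any single array.
In the knockout 1438664_at read 9.41, 8.86 and 8.37 in shams and 8.43 to 9.25, median 8.68, after MCAO, a change of -0.11 (adjusted p = 0.698). In the knockout 1430640_a_at read 8.15, 7.91 and 7.65 in shams and 7.28 to 7.65, median 7.51, after MCAO, a change of -0.43 (adjusted p = 0.0954). That probe set was thus lower after MCAO than in shams, short of the threshold, and it passed with repeated quantile normalization, only the arrays compared or array weights (-0.54 to -0.43, adjusted p 0.032 to 0.0444).

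Prkar2b was the only member gene whose change after MCAO was called as different between the genotypes. The difference, knockout minus wild type, was 1.04 at 1456475_s_at (SE 0.26, adjusted p = 0.0272) and 1.08 at 1438664_at (SE 0.27, adjusted p = 0.0272), and 0.64 at 1430640_a_at (adjusted p = 0.109). These were 2 of the 33 member probe sets, against 7.41% of all probe sets called for a difference, 3.10% higher and 4.31% lower. Of all such calls 41.8% were higher, or 66.1% after median centring. The median difference of the 33 was 0.20 against -0.04 for all.
The difference drew on both surgeries: the knockout mean was lower than the wild type mean by 0.64 after sham (adjusted p = 0.0837) and higher by 0.40 after MCAO (adjusted p = 0.189), neither passing by itself. Both difference calls were lost without wild type sham array 1 or 2 or knockout sham array 2 or 3 (0.83 to 1.07, adjusted p 0.0624 to 0.113). With the actin 3 prime minus 5 prime value as a covariate they were 0.88 and 0.94 (adjusted p = 0.0959 and 0.0956), and after a repeated quantile normalization 0.78 and 0.83 (adjusted p = 0.0834 and 0.0824). Without knockout MCAO arrays 2, 4 and 5, described with Prkar1b, they were 0.90 and 0.92 (adjusted p = 0.0832 and 0.0844). The genes closest to Prkar2b over the 20 arrays were Mme (r = 0.917), Pcdh10 (0.915) and Lgi2 (0.911).

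Prkar1b (chr5:139017304-139150703) encodes the type I beta regulatory subunit, a neuronal form. Its brightest probe set, 1434325_x_at, lay at the 99.9th percentile of all probe sets. It read 13.52, 13.43 and 13.29 in wild type shams, 13.51, 13.41 and 13.27 in knockout shams, 13.23 to 13.53 after MCAO in the wild type and 13.51 to 13.60 in the knockout. None of its 5 probe sets was called in either genotype: wild type values were 0.03 to 0.15 (adjusted p 0.278 to 0.934) and knockout values were 0.06 to 0.17 at 4 of the 5.
The exception in size was 1416754_at, at -1.11 in the knockout (SE 0.59, adjusted p = 0.188). It read 11.92, 11.78 and 11.60 in wild type shams, 12.01, 11.95 and 11.68 in knockout shams and 11.59 to 12.02 after MCAO in the wild type. On knockout MCAO arrays 1 to 7 it read 12.003, 9.887, 11.810, 8.698, 8.840, 12.127 and 12.003. Arrays 2, 4 and 5 were thus low and the other 4 were at the level of the rest, while the other 4 Prkar1b probe sets were not low there. On those arrays the 3 prime minus 5 prime difference of the Gapdh control was 0.38, 0.0014 and 1.18, against -0.25 to -0.19 on the other knockout MCAO arrays; its part in these readings was not tested. Without arrays 2, 4 and 5 together the value was 0.11 (adjusted p = 0.611). In that fit 7 of the 33 member probe sets were called in the knockout, 6 higher and 1 lower, and the calls lost were those of Pde1b (-0.65, adjusted p = 0.12) and of the dimmer Adcy7 probe sets (0.64 and 0.34, adjusted p = 0.0799 and 0.102). A higher call that was not made with all arrays was gained.

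**Figure D3:**
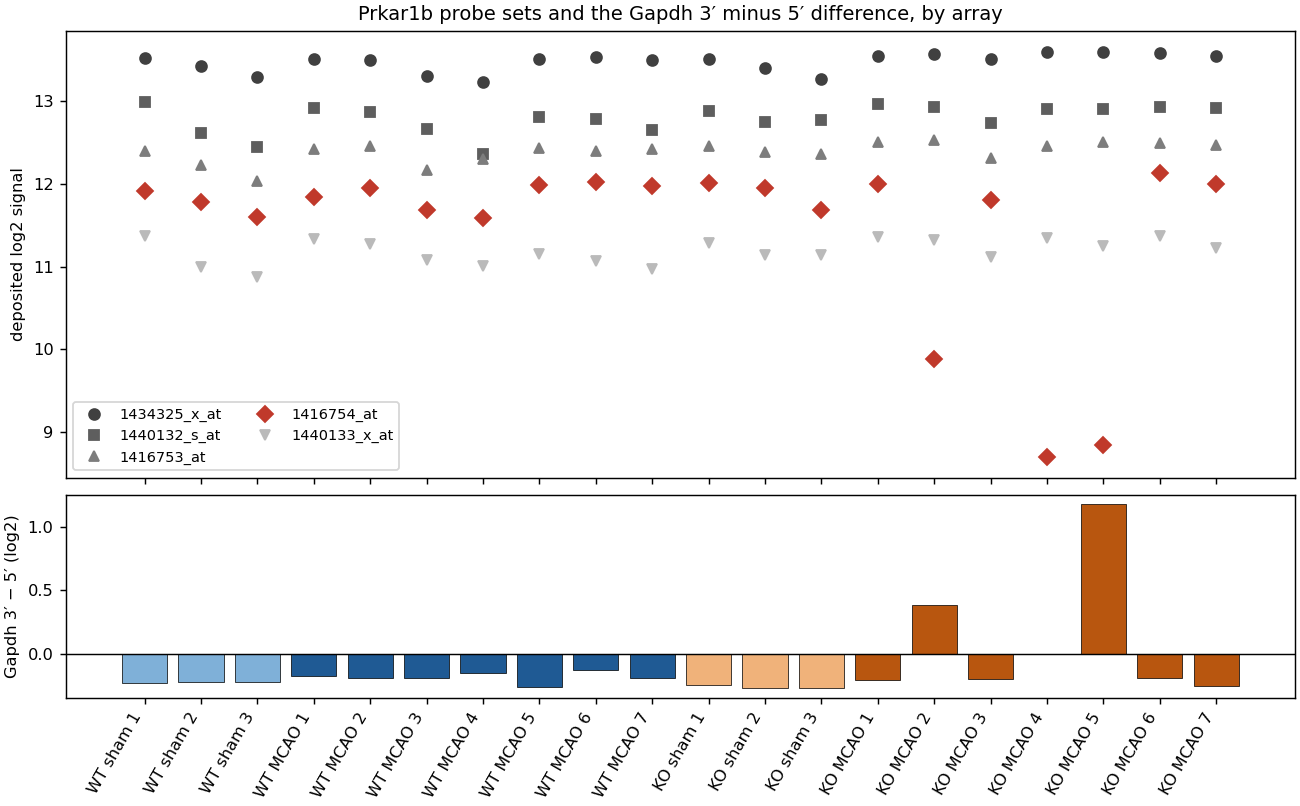
Log2 signal of the 5 Prkar1b probe sets on the 20 surgery arrays, with the 3 prime minus 5 prime difference of the Gapdh control probe sets (log2) as bars. Probe set 1416754_at drops to 8.70 to 9.89 on knockout MCAO arrays 2, 4 and 5, and the other 4 probe sets do not.

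Prkaca (chr8:83972978-83996444) encodes the alpha catalytic subunit. Probe set 1447720_x_at, the brighter of 2, read 10.69, 11.05 and 11.13 in wild type shams and 10.60, 10.45 and 10.20 in knockout shams, which did not overlap. After MCAO it read 10.39 to 10.88, median 10.76, in the wild type and 10.44 to 11.05, median 10.67, in the knockout. The change was -0.24 in the wild type (adjusted p = 0.269) and 0.30 in the knockout (adjusted p = 0.131), and the difference of 0.54 did not pass (adjusted p = 0.0812). The second probe set gave -0.29 and -0.25 (adjusted p = 0.415 and 0.421). The 2 probe sets did not follow each other over the 20 arrays (r = -0.08).

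Akap5 (chr12:76324617-76334517) encodes the scaffold that holds protein kinase A, calcineurin and beta adrenergic receptors at postsynaptic membranes of excitatory synapses. It had the largest fall of any member. Probe set 1436142_at read 8.70, 8.67 and 8.46 in wild type shams and 6.44 to 7.50, median 7.13, after MCAO. In the knockout it read 8.41, 7.80 and 7.58 in shams and 6.93 to 7.94, median 7.28, after MCAO. The wild type groups were nearly 1 log2 unit apart at their closest, and the knockout groups overlapped.
Group means were 8.61 ± 0.13 (SD, n = 3) and 7.00 ± 0.35 (n = 7) in the wild type and 7.93 ± 0.43 (n = 3) and 7.32 ± 0.36 (n = 7) in the knockout. Akap5 fell 3.05-fold in the wild type (log2 -1.61, SE 0.22, adjusted p = 9.79e-05). The knockout value was -0.62 (SE 0.22, adjusted p = 0.0553), just short of the threshold. It passed with 1 probe set per gene, repeated quantile normalization, without dim probe sets and with array weights (-0.72 to -0.62, adjusted p 0.0087 to 0.0467). With the actin covariate the 3 knockout values were larger, at -1.05, -1.01 and -0.68, and all passed (adjusted p = 0.00042, 0.0062 and 0.0103).
Probe set 1431717_at read 7.84, 8.06 and 7.61 in wild type shams and 5.95 to 6.88, median 6.61, after MCAO, a fall of 2.46-fold (adjusted p = 0.0014). Probe set 1447301_at read 6.24, 6.29 and 6.16 in wild type shams and 4.82 to 5.37, median 5.24, after MCAO, a fall of 2.04-fold (adjusted p = 0.00042). The wild type calls were kept under every other setting that tested these probe sets and without any single array.
In the knockout 1431717_at read 7.58, 7.25 and 6.85 in shams and 6.11 to 7.58 after MCAO (log2 -0.64, adjusted p = 0.0614), and 1447301_at read 5.76, 5.79 and 5.53 in shams and 4.72 to 5.83 after MCAO (log2 -0.46, adjusted p = 0.0544). Without knockout MCAO array 7 the 3 knockout values were -0.72, -0.81 and -0.56 and all passed (adjusted p = 0.0189, 0.0036 and 0.0078). The difference of the changes at 1436142_at was 0.996 (SE 0.31, adjusted p = 0.0535). It passed without knockout sham array 1 (1.24, adjusted p = 0.029), wild type MCAO array 3 (1.08), knockout MCAO array 1 (1.06) or knockout MCAO array 6 (1.05), and with median centring (1.08), 1 probe set per gene or array weights (0.84). With the actin covariate it was 0.60 (adjusted p = 0.15).

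Some neuronal markers were also called lower after MCAO, beside 1139 of all 18193 genes in the wild type and 1380 in the knockout. Of 9 markers of cortical and hippocampal excitatory neurons 4 fell in the wild type (median -0.44) and 1 in the knockout (median -0.26), and 0 rose in either. Their mean signal was 10.14 to 10.64 in wild type shams, 10.05 to 10.38 in knockout shams, 9.67 to 9.98 after MCAO in the wild type and 9.71 to 10.20 after MCAO in the knockout. It was 10.15, 10.18 and 10.20 on knockout MCAO arrays 2, 5 and 7, and 9.71 to 9.89 on the other knockout MCAO arrays. Of 10 pan-neuronal markers 2 fell in the wild type (median -0.23) and 1 in the knockout (median -0.11). The part of these markers in the fall of Akap5 and Prkar2b was not tested. Genes closest to Akap5 over the 20 arrays were Lin7a (r = 0.949), Olfm3 (0.945) and Alcam (0.942), and those closest to Adcy1 were Clstn1 (0.930), Scn8a (0.915) and Trak1 (0.913).

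Pde4b (chr4:102087332-102607275) encodes a cAMP-specific phosphodiesterase of neurons and inflammatory cells. At its brightest, 1422474_at, it read 9.74, 9.51 and 9.36 in wild type shams and 9.73 to 10.31, median 9.97, after MCAO. In the knockout it read 9.59, 9.34 and 9.20 in shams and 9.87 to 10.56, median 10.22, after MCAO. Pde4b rose 1.75-fold in the knockout (log2 0.81, SE 0.16, adjusted p = 0.0016). The wild type value was 0.48 (SE 0.16, adjusted p = 0.0589), just short of the threshold. It passed without wild type MCAO array 6 (0.53, adjusted p = 0.0455). It also passed with 1 probe set per gene, repeated quantile normalization, without dim probe sets, with the replicate block, with either control covariate, with only the arrays compared and with array weights (0.47 to 0.63, adjusted p 0.0015 to 0.0491).
Probe set 1442700_at rose in both genotypes. It read 6.76, 7.42 and 6.81 in wild type shams and 7.54 to 9.15, median 7.74, after MCAO (1.91-fold, log2 0.93, adjusted p = 0.0337). In the knockout it read 6.47, 6.47 and 6.09 in shams and 7.12 to 8.25, median 7.63, after MCAO (2.40-fold, log2 1.26, adjusted p = 0.0034). Sham and MCAO did not overlap in either genotype. The wild type call was lost without sham array 1 (0.82, adjusted p = 0.16) or sham array 3 (0.84, adjusted p = 0.139), and in a fit to only the arrays compared (0.93, adjusted p = 0.0517).
Probe set 1422473_at gave 0.57 and 0.78 (adjusted p = 0.26 and 0.0862). On knockout MCAO arrays 2 and 5 it read 8.37 and 8.24 where the highest array read 10.40, and these are among the arrays on which Prkar1b 1416754_at was low. Without array 2 or array 5 the knockout value was 0.95 and 0.97 (adjusted p = 0.0269 and 0.0179). The remaining 3 probe sets were dim and gave -0.11 to 0.08. The difference of the changes was 0.33 at 1422474_at (adjusted p = 0.34). Genes closest to Pde4b were Serpinh1 (r = 0.958), Lamp2 (0.947) and Ptbp1 (0.946).

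Crem (chr18:3266354-3337773) encodes cAMP response element modulators, among them the inducible repressor ICER. Its brightest probe set, 1449037_at, read 7.56, 7.40 and 7.33 in wild type shams and 7.31 to 8.31, median 7.86, after MCAO. In the knockout it read 7.24, 7.02 and 6.80 in shams and 7.77 to 8.15, median 7.97, after MCAO. Crem rose 1.94-fold in the knockout (log2 0.96, SE 0.17, adjusted p = 0.00054), and the wild type value was 0.42 (SE 0.17, adjusted p = 0.111).
Probe set 1418322_at read 6.65, 6.61 and 6.37 in knockout shams and 7.12 to 7.65, median 7.40, after MCAO, a rise of 1.76-fold (adjusted p = 0.0003). In the wild type it read 6.77, 6.89 and 6.87 in shams and 6.91 to 7.54, median 7.26, after MCAO, which did not overlap (log2 0.38, adjusted p = 0.0769). At both probe sets the 3 knockout shams lay below the 3 wild type shams, and the MCAO arrays of the genotypes overlapped.
The wild type values passed without MCAO array 1 at the first probe set (0.51, adjusted p = 0.0333) and without MCAO array 4 at the second (0.43, adjusted p = 0.0388). Differences of the changes were 0.54 and 0.43 (adjusted p = 0.138 and 0.139), so the genotypes were not shown to differ. The 2 dim probe sets gave -0.04 to 0.19 in either genotype. Genes closest to Crem were Pcna (r = 0.937), Pex2 (0.912) and Dph5 (0.908).

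Knockout and wild type were next compared within each surgery. These comparisons share their arrays with the MCAO changes above and are no separate evidence. After MCAO 0 of the 33 member probe sets were called in limma, 0 were without overlap, and the median difference was 0.10. Only 0.131% of all probe sets were called, 0.0733% higher and 0.0577% lower, 0.366% did not overlap, and 7533 had an unadjusted p under 0.05. Of the calls 55.9% were higher, or 68.4% after median centring. The highest member values were 0.52 and 0.47 at Adcy7 1450065_at and 1456307_s_at (adjusted p = 0.237 and 0.246) and 0.46 at Prkar2b 1438664_at (adjusted p = 0.156). The lowest was -1.10 at Prkar1b 1416754_at (adjusted p = 0.245), which rested on the 3 low arrays.

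After sham surgery 0 of 33 were called in limma against 4.67% of all probe sets, 2.58% higher and 2.10% lower, and 10886 had an unadjusted p under 0.05. Of the calls 55.2% were higher, or 44.6% after median centring. The shams of 12 of the 33 did not overlap, against 39.2% of all with 3 arrays a group. The 3 Akap5 probe sets were lower in the knockout by 0.68, 0.61 and 0.54 (adjusted p = 0.119, 0.185 and 0.102), without overlap, and Prkaca 1447720_x_at by 0.54 (adjusted p = 0.057). The median of the 33 was -0.13 against 0.03 for all. Without knockout sham array 1, Prkar2b passed at 2 probe sets (-0.88 and -0.89, adjusted p = 0.0278 and 0.0303) and so did Prkaca (-0.63, adjusted p = 0.0482). The actin 3 prime minus 5 prime difference was higher on all 3 knockout shams than on the wild type shams. With it as a covariate 3 of all probe sets were called after sham, in place of 2105. On these arrays genotype and the actin difference cannot be told apart.

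The wider pathway was described with 9 lists of genes by role, each gene by its brightest probe set in the fit. In the wild type 6 of 82 measured genes rose and 18 fell after MCAO, with a median of -0.12. In the knockout 11 rose and 10 fell, with a median of -0.03. Without the 10 members the counts were 6 and 14 of 72 in the wild type and 8 and 9 of 72 in the knockout. Over all 18193 genes 1348 rose and 1139 fell in the wild type, 13.7% together, and 2713 rose and 1380 fell in the knockout, 22.5% together.

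Among 10 cyclases 1 rose and 4 fell in the wild type, and 2 rose and 0 fell in the knockout. The calcium-stimulated cyclase gene Adcy8 fell by 1.10 in the wild type on the log2 scale (SE 0.29, adjusted p = 0.0197). Adcy4 rose by 0.92 in the wild type (SE 0.18, adjusted p = 0.002) and by 0.74 in the knockout (adjusted p = 0.0064). Among 8 G protein genes 1 rose and 2 fell in the wild type, and 2 rose and 0 fell in the knockout. Gng7, which encodes the gamma subunit of the striatal stimulatory G protein, fell by 1.47 in the wild type (SE 0.37, adjusted p = 0.0136), and Gnai3, an inhibitory alpha subunit, rose by 0.54 (adjusted p = 0.0049) and by 0.82 in the knockout (adjusted p = 7.12e-05). The fall of Gng7 was not followed with single sham arrays left out, over which striatal markers ran from 8.34 to 10.73 in the wild type.

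Among 9 kinase A subunits and inhibitors 0 rose and 2 fell in the wild type, Prkar2b and the kinase inhibitor gene Pkib (log2 -0.45, adjusted p = 0.0217). In the knockout 0 rose and only Pkib fell (log2 -0.36, adjusted p = 0.0461). Among 13 anchoring proteins 1 rose and 4 fell in the wild type, and 2 rose and 3 fell in the knockout. Akap12, the scaffold also known as gravin, rose by 1.86 in the wild type (SE 0.39, adjusted p = 0.004) and by 1.41 in the knockout (adjusted p = 0.0166), opposite to Akap5. Akap9 was the anchoring protein gene called for a difference of changes between the genotypes (0.80, adjusted p = 0.0292). Without knockout sham array 3, 0 of all probe sets were called for a difference, so this call rested on that array.

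Among 15 phosphodiesterases 1 rose and 4 fell in the wild type, and 2 rose and 3 fell in the knockout. The striatal Pde10a fell by 1.96 in the wild type (SE 0.35, adjusted p = 0.0011) and by 1.09 in the knockout (adjusted p = 0.0332), and Pde7b fell by 1.62 in the wild type (SE 0.29, adjusted p = 0.0012). Striatal markers had a mean signal of 8.34 on wild type sham array 3, within the 8.17 to 9.05 of the wild type MCAO arrays. These falls were not followed with single sham arrays left out. Pde3b rose by 0.70 in the knockout (adjusted p = 0.0061). Among 5 other effectors 0 changed in the wild type and 1 fell in the knockout, Popdc2 (log2 -0.52, adjusted p = 0.02).

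In the CREB family and its coactivators, 7 genes, 0 changed after MCAO in the wild type and Crem alone rose in the knockout. The difference of changes was called for the coactivator gene Ep300 (0.65, adjusted p = 0.0441). Of 12 CREB target genes 2 rose and 2 fell in the wild type, and 1 rose and 2 fell in the knockout. Nr4a3, an immediate early nuclear receptor gene, fell by 1.39 in the wild type (SE 0.23, adjusted p = 0.00064), and Nfil3 rose by 1.02 in the wild type (adjusted p = 0.0054) and by 1.29 in the knockout (adjusted p = 0.00051). Of 4 genes of receptor desensitisation 0 changed in the wild type and 1 rose in the knockout, the kinase gene Grk5 (log2 0.68, adjusted p = 0.0081). Over the 82 genes 3 were called for a higher and 1 for a lower difference of changes, beside 8.03% of all genes. For knockout against wild type after MCAO 0 were called. The difference calls, that of Ep300 among them, all depended on knockout sham array 3, without which 0 of all probe sets were called. With the actin covariate 57 of all probe sets were called for a difference.

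**Figure D4:**
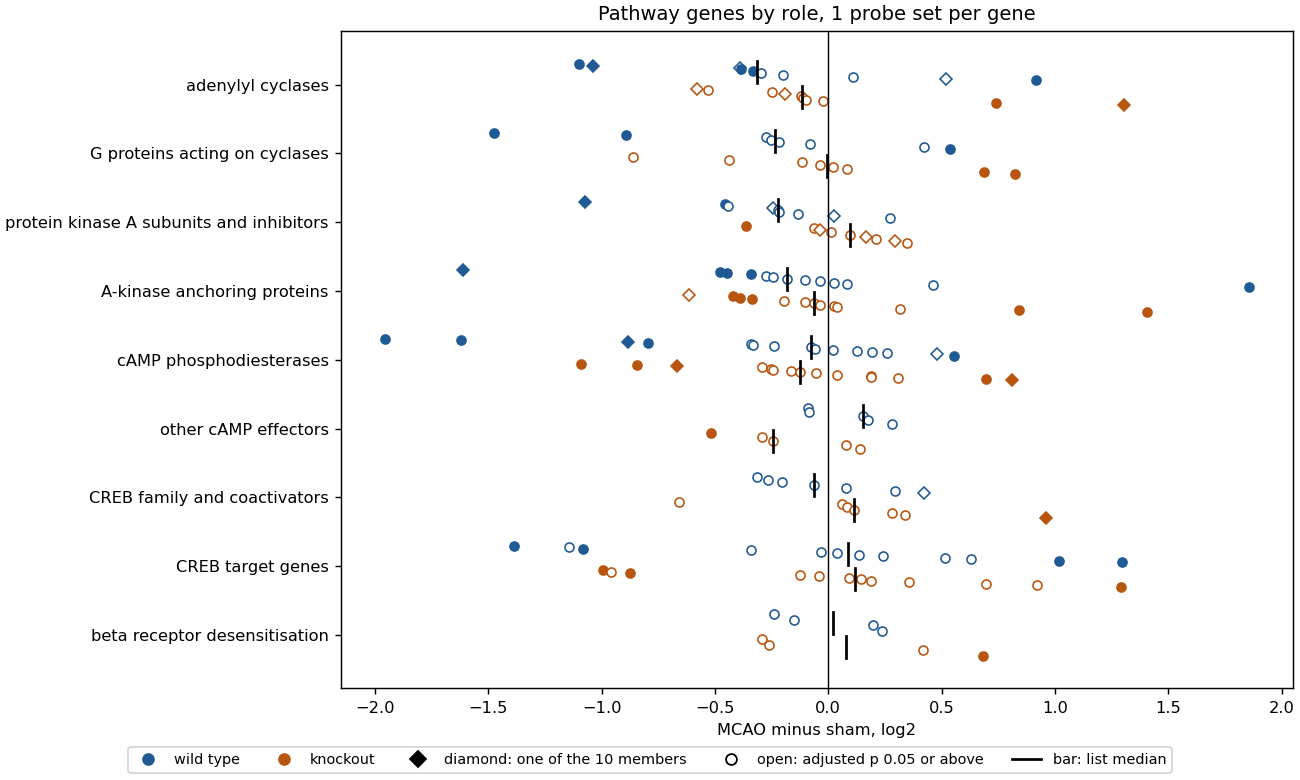
Change from sham to MCAO (log2) of the measured pathway genes by role, 1 probe set per gene, wild type in blue and knockout in orange; filled symbols had an adjusted p under 0.05, diamonds are the 10 members and the black bar is the list median. Cyclases, G proteins and kinase A genes have their wild type median below 0 (-0.31, -0.24 and -0.22) and a knockout median closer to 0 (-0.12, -0.01 and 0.10).

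In the naive hemispheres the members differed between the genotypes at 4 probe sets. Wild type naive array 6 stood apart: it correlated with the other naive arrays at 0.8045 to 0.8302, where those correlated at 0.9775 to 0.9986 with each other, and its actin 3 prime minus 5 prime difference was 4.88 against 0.28 to 0.72 on the other wild type naive arrays. Prkaca 1450519_a_at read 5.73 on it and 10.81 to 11.12 on the other wild type naive arrays. Results are therefore given with and without it. Array medians were 6.87 to 6.94 in the wild type and 7.02 to 7.05 in the knockout, without overlap. Centring on them moved the median difference of all probe sets from 0.03 to -0.12, and the share of higher calls from 39.9% to 10.9%.

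With all 15 arrays 20.1% of probe sets were called, 8.02% higher and 12.1% lower in the knockout. Of the 33 member probe sets 1 was higher and 3 were lower, in 3 genes, and 2 did not overlap, against 11.8% of all. Without array 6, 39.8% of all were called, 23.7% higher and 16.1% lower, and 16.3% did not overlap. Of the members 7 were then higher and 5 lower, in 6 genes. With median centring as well 2 were higher and 10 lower, and 7 probe sets kept their call and direction in both scalings. Over all probe sets 19.2% of the 18356 calls of that fit were higher, so most calls of the array were lower as well.

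Crem gave both probe sets without overlap, at its dim probe sets only. Probe set 1430847_a_at, at the 16.8th percentile of surgery means, read 4.99 to 5.67, median 5.16, in the wild type and 4.56 to 4.81, median 4.59, in the knockout. The knockout was lower by 0.58 (log2 -0.58, SE 0.09, adjusted p = 0.0004), and by 0.52 without array 6 (log2 -0.52, adjusted p = 1e-05). Probe set 1430598_at, at the 4.76th percentile, read 3.98 to 4.26 in the wild type and 3.62 to 3.87 in the knockout (log2 -0.33, SE 0.06, adjusted p = 0.0014; without array 6 -0.31, adjusted p = 0.00023). The lowest value on any array was 3.49 to 3.73 in the wild type and 3.19 to 3.28 in the knockout, so the floor of the signal also differed between the genotypes. The part of that floor in the values of dim probe sets was not tested. After a repeated quantile normalization the second value was -0.04 (adjusted p = 0.72). The bright Crem probe sets were not called.

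Adcy5 was lower at its dimmest probe set, 1443080_at, which read 4.87 to 5.35, median 5.03, in the wild type and 4.50 to 4.88, median 4.70, in the knockout (log2 -0.37, SE 0.08, adjusted p = 0.0053; without array 6 -0.34, adjusted p = 0.0022). Its brightest probe set was higher without array 6, by 0.26 (adjusted p = 0.0142), or 0.10 with centring (adjusted p = 0.30). The probe sets of Adcy5 thus went opposite ways. A repeated quantile normalization left the dim one at -0.20 (adjusted p = 0.139).

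Akap5 was higher in the knockout at 1 of its 3 probe sets with all arrays and at 2 without array 6. Probe set 1431717_at read 6.21 to 8.68, median 8.04, in the wild type and 8.47 to 8.89, median 8.65, in the knockout (log2 0.78, SE 0.26, adjusted p = 0.0468). The lowest wild type value was that of array 6, without which the difference was 0.54 (SE 0.11, adjusted p = 0.00095), and 0.38 with centring too (adjusted p = 0.0082). Leaving out most of the other single arrays ended the call in the full set (0.74 to 0.81, adjusted p 0.0558 to 0.0893), as did median centring (0.63, adjusted p = 0.0974) and repeated quantile normalization (0.69, adjusted p = 0.165). Probe set 1436142_at read 8.69 to 9.33 in the wild type without array 6, which read 10.85, and 9.23 to 9.83 in the knockout. It was 0.46 higher without that array (SE 0.10, adjusted p = 0.0022), and 0.30 with centring too (adjusted p = 0.0249). The third, 1447301_at, was not called, at 0.12 with all arrays (adjusted p = 0.568) and 0.03 without array 6 (adjusted p = 0.851), or -0.13 with centring. Without array 6, Akap5 was the only member called higher in the knockout in both scalings.

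The other calls made only without array 6 were higher values of Adcy7 (0.39 and 0.37, adjusted p = 0.0316 and 0.0287), Prkar1b 1440133_x_at (0.21, adjusted p = 0.0183) and Pde4b 1442700_at (0.39, adjusted p = 0.005), and lower values of the dim Pde4b probe sets 1446577_at and 1447718_at (-0.18 and -0.26, adjusted p = 0.0139 and 0.0055). With centring the Adcy7 values were 0.24 and 0.22 and the Pde4b 1442700_at value 0.24, none of them called. The naive values of Adcy1, Prkar2b, Prkaca, Pde1b and the bright Crem probe sets were not called with or without array 6 in the deposited scaling. Microglial markers were higher in the same comparison, 5 of 9 with all arrays and 9 of 9 without array 6, with mean signals of 8.20 to 8.35 in the wild type and 8.65 to 8.81 in the knockout. Of 8 endothelial markers 2 were higher with all arrays and 7 without array 6, with 0 lower. Of 10 markers of infiltrating monocytes and neutrophils 0 were higher and 4 lower with all arrays, and 1 higher and 4 lower without array 6. Over all 18193 genes 1309 were higher and 1646 lower with all arrays. The marker counts use the deposited scaling, and the markers were not counted with centring. Without array 6 the microglial and endothelial medians were 0.46 and 0.34, and centring moved the median of all probe sets from 0.045 to -0.109. The part of these cells in the Adcy7 and Pde4b values was not tested.

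**Figure D5:**
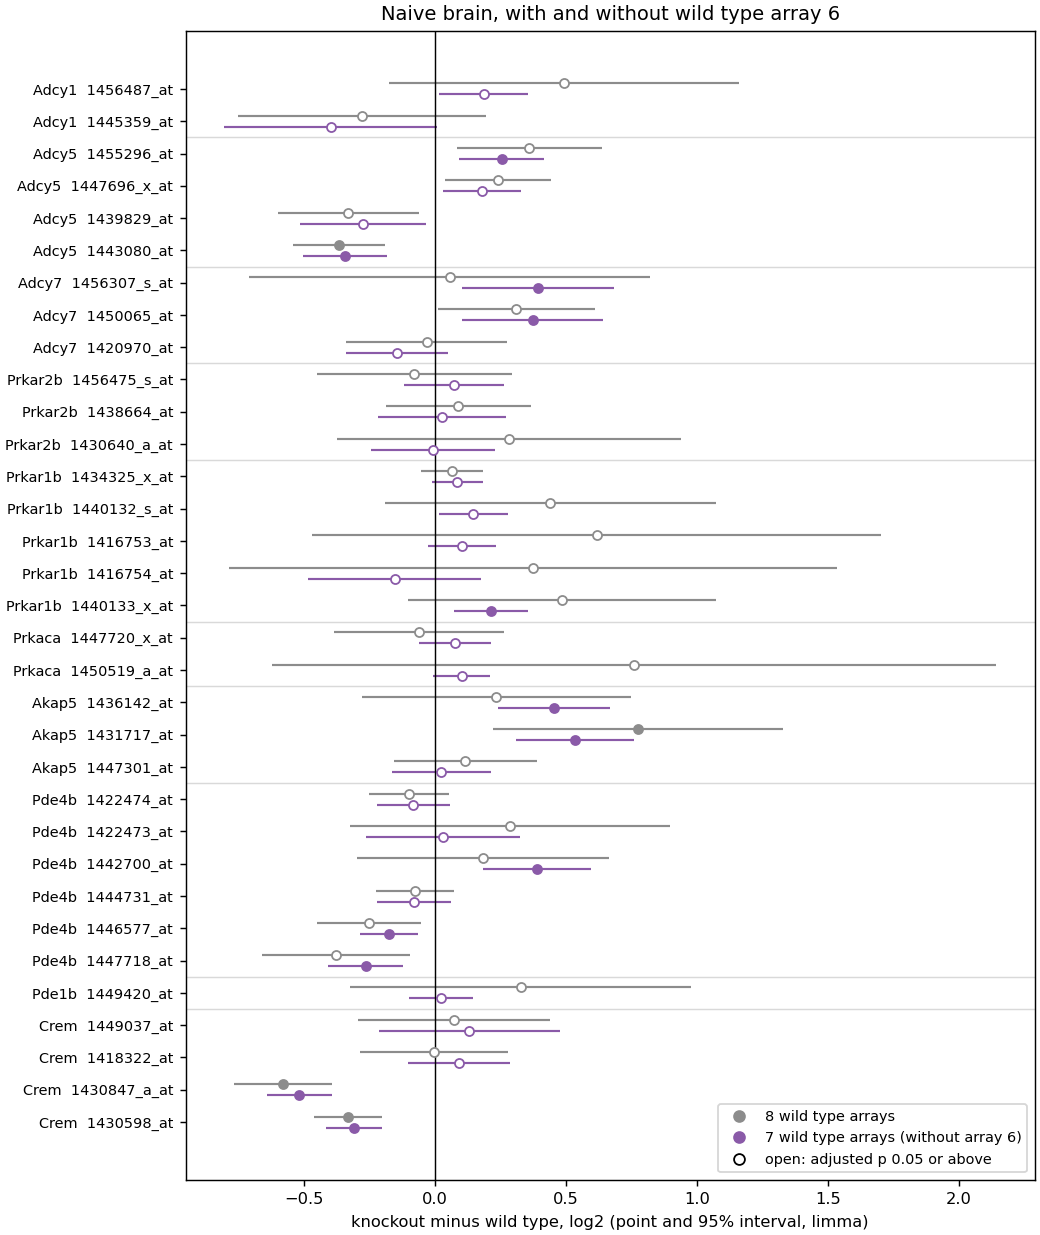
Naive knockout minus naive wild type (log2) of the 33 member probe sets with 95% limma intervals, with all 8 wild type arrays in grey and without wild type array 6 in purple; filled points had an adjusted p under 0.05. Intervals narrow without array 6, Akap5 lies at 0.46 and 0.54, and the dim Crem probe sets lie at -0.52 and -0.31.

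Over the wider pathway 8 of 82 measured genes were higher and 2 lower in the naive knockout, beside 1309 higher and 1646 lower of 18193 genes, 16.2% together. CREB target genes gave 4 of the 8, Fosb, Bdnf, Ppargc1a and Pde4d, higher by 0.24 to 0.79, and without array 6 they numbered 6 of 12, with 0 lower. Without that array 4 of 10 cyclases, 5 of 13 anchoring proteins and 5 of 15 phosphodiesterases were higher, and 1, 2 and 1 were lower, beside 23.7% higher and 16.1% lower of all probe sets in that fit. These counts use the deposited scaling and each gene's brightest probe set, so that share of all probe sets is not like for like. With all arrays 94.8% of naive calls were higher once dim probe sets were left out, against 39.9% with them. Higher calls were thus common among bright probe sets in general.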

How the data were processed

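RNA of mouse brain hemispheres was measured on 35 Affymetrix arrays. The log2 signals were made by the authors with RMA, per the submitters' processing notes (version not given). Surgery and naive arrays were normalized separately, per the labels' protocols. Of 45101 probe sets 64 controls were left out; 34945 of the rest had 1 gene symbol, 932 several and 9160 none, and 34741 matched the reference by Entrez ID. The most alike pair of arrays shared 6.39% of values, so none was a duplicate.

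In R 4.3.3 with limma 3.58.1, lmFit and eBayes were fitted to the 20 surgery arrays in 4 groups and, separately, to the 15 naive arrays, with Benjamini-Hochberg adjustment over 45037 probe sets and a threshold of 0.05. The fit was tested on simulated data. The number of arrays limits the precision.

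Members, gene lists and marker lists were chosen with earlier results of these data known. All member probe sets are accounted for. Values are given for each member's brightest probe set and each called one; up to 2 other genes with the smallest p per list and comparison, and the 3 genes most alike per member, could be named. Besides the marker lists described in the report, the lists of lymphocytes (0 higher, 0 lower of 7 in the wild type after MCAO; 0 and 2 in the knockout), endothelium (3 and 1 of 8; 4 and 0), oligodendrocytes (3 and 0 of 6; 2 and 0), cerebellum (0 and 0 of 9; 0 and 1) and choroid plexus (0 and 0 of 6; 0 and 0) were counted. The gene targeted in the knockout is not reported here.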

Additional observations from a re-analysis of the deposited data

Results flagged for a closer look

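In each group of 4 to 10 arrays the highest or lowest member value was set against the rest by Dixon's ratio. Of 132 groups of values 31 held such an array, and chance gives about 1 in 20. In 20 of the 31 it was wild type naive array 6, which read 10.39 and 8.51 for Adcy1, 9.60 and 5.23 for Adcy7, 10.74 and 6.43 for Prkar2b, 10.86, 8.71, 8.24 and 9.59 for Prkar1b, and 12.40 and 5.73 for Prkaca. It read 10.85, 6.21 and 6.21 for the 3 Akap5 probe sets, 7.00, 8.03, 4.68 and 4.82 for Pde4b and 9.19 for Pde1b. For Adcy7, Prkar2b, Prkaca, Akap5 and Pde4b it was the highest array at some of these probe sets and the lowest at others, and for Adcy1, Prkar1b and Pde1b it was the lowest at each.

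The other 11 were spread over arrays. Among the surgery arrays, Adcy5 1443080_at was low on wild type MCAO array 7 (3.76), Adcy7 1420970_at was high on knockout MCAO array 4 (5.87), and Prkar1b 1440132_s_at and 1416753_at were low on knockout MCAO array 3 (12.73 and 12.31). Akap5 1431717_at was low on wild type MCAO array 4 (5.95) and high on knockout MCAO array 7 (7.58), and 1447301_at was low on wild type MCAO array 4 (4.82). Pde4b 1442700_at was high on that same array (9.15). In the naive knockout Prkar1b 1416753_at was high on array 2 (12.96), and Prkar1b 1416754_at and Pde4b 1422473_at were low on array 4 (11.32 and 8.24).

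The change of Prkar2b after MCAO differed between the genotypes by 1.04 at 1456475_s_at and by 1.08 at 1438664_at, with an adjusted p of 0.0272 for each in limma's test of the difference. Both calls were lost without wild type sham array 1 or 2 or knockout sham array 2 or 3, with the actin covariate and with repeated quantile normalization. Within the wild type alone, all 7 MCAO arrays lay below all 3 shams at both probe sets. The wild type groups did not overlap for 16.5% of all probe sets.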

How the results depend on the processing

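Counts below are probe sets called of all 45037, then of the 33 members, for the settings that moved either by more than 1.5 times; they stand against 4816 and 9 (wild type MCAO change), 8429 and 9 (knockout MCAO change), 3336 and 2 (difference of the changes), 59 and 0 (knockout against wild type after MCAO), 2105 and 0 (after sham) and 9046 and 4 (naive). With 1 probe set per gene, which tests fewer features, the wild type change gave 2901, the knockout change 4545 with 5 members, the difference 1744, the genotype comparison after MCAO 8, after sham 1101 with 1 member, and naive 2669 with 0. With median centring 1 member was called after sham and 8 in the naive comparison. With repeated quantile normalization the difference gave 628 with 0 members, sham 621, and naive 5046 with 1. Without dim probe sets, again fewer features, the difference gave 1441, sham 1074, and naive 934 with 0. With the actin covariate the knockout change gave 4724, the difference 57 with 0 members, the genotype comparison after MCAO 1656 with 1, sham 3, and naive 17439 with 11. Fitted to only the arrays compared, the genotype comparison after MCAO gave 18 and sham 6052 with 4. With array weights the wild type change gave 8506, the knockout change 13589 with 14 members, the difference 6638 with 8, sham 12476 with 8, and naive 19879 with 13. At an adjusted p under 0.01 the counts were 1961, 3602, 0 with 0 members for the difference, 16, 18 and 4842. For these settings, apart from those that test fewer features or set a stricter threshold, the cause was not tested.

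The Gapdh covariate, the fit without knockout MCAO arrays 2, 4 and 5, and the naive fit without array 6 and with centring were chosen after seeing the data. With the Gapdh covariate the difference gave 1346, the genotype comparison after MCAO 23, and naive 18215 with 12 members. Without the 3 arrays the knockout change gave 5290, the difference 36 with 0 members, and the genotype comparison after MCAO 17. The naive fit without array 6 and with centring gave 18356 with 12 members. The replicate numbers are no pairing in the labels, and same-numbered arrays had correlations of their deviations from -0.21 to 0.47. Between the naive genotypes 4 of 7 same-numbered pairs were over 0.1, and for 2 the own number was the closest. Between the MCAO genotypes these counts were 2 of 7 and 1. With the replicate block the wild type change gave 3207 and sham 1368, and member calls were lost for Adcy5 1455296_at in the wild type (-0.90), both dimmer Adcy7 probe sets (0.94 and 0.39) and Pde1b (-0.57) in the knockout and Akap5 1431717_at in the naive set (0.78).

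With each array left out in turn the counts over all probe sets and over members ran from 2438 to 4838 and 6 to 11 (wild type change, lowest without sham array 1), 3715 to 9583 and 6 to 11 (knockout change, lowest over all without sham array 3), 0 to 5362 and 0 to 4 (difference, 0 over all without knockout sham array 3), 18 to 138 and 0 to 0 (genotypes after MCAO), 5 to 2207 and 0 to 3 (after sham) and 7153 to 17919 and 3 to 12 (naive, highest without wild type array 6). Of the 24 member calls 0 changed direction under any setting run; of 4520 member values compared 232 that were called in neither setting changed sign. The calls kept throughout, wherever tested, were the 3 Prkar2b and 3 Akap5 calls in the wild type, Adcy7 1456307_s_at and the Crem and Pde4b calls in the knockout, and Crem 1430847_a_at in the naive set. Probe sets near the signal floor and groups of 3 shams limit what could be detected.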
